A study of Mus musculus with 4 samples.

Results

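MicroRNA (miRNA) hairpins and miRNA host transcripts were examined in RNA-seq libraries of splenic Treg cells of 2 genotypes. KO mice were Foxp3Cre-YFPSetd2f/f and CTRL mice were their Foxp3Cre-YFPSetd2f/+ littermates. Treg cells were sorted as CD3+CD4+YFP+, and Cre was driven from the Foxp3 locus in both genotypes. CTRL mice therefore carried 1 floxed Setd2 allele in cells that also express Cre. Each genotype had 2 libraries, CTRL 1 and 2 and KO 1 and 2, each from the pooled cells of 2 mice, and no age was given in the labels read here. Rows of the deposited FPKM table (fragments per kilobase of exon, scaled to the library's total) were taken when the gene symbol was Mir and a number or Mirlet7 and FPKM reached 1 in at least 2 of the 4 libraries. Of 649 such rows among 24087 genes, 77 passed. They were 76 hairpin rows and 1 host transcript, Mir22hg.

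A miRNA gene is transcribed as a long primary RNA, often inside an intron or exon of a longer gene. Drosha and Dgcr8 cut the hairpin out of this RNA in the nucleus, exportin 5 carries it to the cytoplasm, and Dicer trims it to a duplex, of which 1 strand is loaded on an Argonaute protein and pairs with target mRNAs mainly through its seed, bases 2 to 8. In Treg cells this pathway is needed for stable suppressive function, and miR-155 is known for supporting Treg cell number by repressing Socs1. The libraries here were enriched with oligo(dT) and read as 150 base pairs, and the hairpins were 57 to 121 bases long with a median of 83.5, so a row counts fragments of longer RNA over a hairpin. Mature miRNAs carry no poly(A) tail and were not measured.

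Of the 77 rows, 7 (9.09%) differed between KO and CTRL at the threshold given further on, near the 9.75% of all genes tested. Mature miRNAs of these rows are shown first, because the seed places each row in a miRNA family. The strands miR-155-3p, miR-22-5p and miR-7a-1-3p of the same rows are not shown. Capitals mark the seed. The sequences are those of RefSeq on GRCm38.p6, and RefSeq held a mature sequence for 70 of the 77 rows.
miR-155-5p, from Mir155 (chr16:84714143-84714165, + strand): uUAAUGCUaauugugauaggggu
miR-22-3p, from the transcript Mir22hg (chr11:75463772-75463793, + strand): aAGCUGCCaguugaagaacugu
miR-7a-5p, from Mir7-1 (chr13:58392841-58392863, - strand): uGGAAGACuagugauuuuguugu
miR-1938, from Mir1938 (chr12:40222782-40222803, - strand): cGGUGGGAcuuguaguucgguc
miR-568, from Mir568 (chr16:43640665-43640684, + strand): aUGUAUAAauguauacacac
miR-1898, from Mir1898 (chr15:12171502-12171523, + strand): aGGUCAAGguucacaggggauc
miR-199a-5p, from Mir199a-1 (chr9:21496537-21496559, - strand): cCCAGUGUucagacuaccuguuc
miR-199a-3p, from Mir199a-1 (chr9:21496498-21496519, - strand): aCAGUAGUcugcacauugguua
None of these 8 sequences shared its seed with a mature miRNA of another row that passed the FPKM rule.

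Seeds were shared within 5 groups of rows. The let-7 seed joined 6 rows (Mirlet7b, Mirlet7c-2, Mirlet7d, Mirlet7f-1, Mirlet7g and Mirlet7i), and the miR-17 seed joined 4 rows in different loci. These families are shown because their rows lie in several loci, which are described further on.
let-7b-5p: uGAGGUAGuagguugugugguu
let-7d-5p: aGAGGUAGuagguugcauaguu
let-7g-5p: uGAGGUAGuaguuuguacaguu
miR-17-5p, from Mir17: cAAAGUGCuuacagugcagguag
miR-20a-5p, from Mir20a: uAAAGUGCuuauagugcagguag
miR-93-5p, from Mir93: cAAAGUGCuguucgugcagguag
miR-106b-5p, from Mir106b: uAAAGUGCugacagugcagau
The other shared seeds were those of let-7 3p strands, of miR-132-3p with miR-212-3p, and of miR-27a-3p with miR-27b-3p.

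Setd2, the deleted gene, measured 23.4 and 25.3 FPKM in the CTRL libraries against 21.3 and 19.5 FPKM for KO, in the direction of the labels, with a log2 fold change of -0.24 that did not pass the test (adjusted p 0.0970, limma). This value covers the whole gene and does not show the floxed part alone. By flow cytometry the paper reported loss of Setd2 protein from splenic KO Treg cells. It also reported a strong drop of H3K36me3, the histone mark that Setd2 makes. Reads behind the FPKM values were recovered from their step sizes, which gave library totals of 32803683 to 35460567 counted reads. CTRL 1 stood apart in the number of genes seen at all, with 19100 genes above 0 against 15913 to 16410 in the other libraries. Treg cell markers (Foxp3, Il2ra, Ctla4, Ikzf2, Tnfrsf18 and Ikzf4) summed to between 1110 and 1210 FPKM. Markers of myeloid cells summed to 158 and 96.2 FPKM in CTRL and to 210 and 79.8 FPKM in KO, and those of B cells to 22.0, 18.5, 32.4 and 18.7 FPKM in the same order, so both were higher in replicate 1 of either genotype. Erythroid markers showed the same order (12.4 and 2.21 FPKM in CTRL), and Cd8a and Cd8b1 together lay between 8.49 and 11.4 FPKM. The part of these cells in the miRNA values was not tested.

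Most annotated miRNA rows had no read. Of the 649 rows, 439 were at 0 in all 4 libraries, 111 were above 0 but reached 1 FPKM in no library, and 22 reached it in 1 library only. The rule was met in all 4 libraries by 56 rows, in CTRL libraries only by 3 rows and in KO libraries only by 1 row, Mir210. Mirlet7i was the row just inside the rule, with a second-highest value of 1.02 FPKM, and Mir192 was just outside at 0.973 FPKM. CTRL 1 alone held reads in 43 rows that were at 0 elsewhere, against 23 rows for KO 1, 11 for KO 2 and 8 for CTRL 2. Of the 6 rows named as host transcripts (hg), the other 5 did not exceed 0.0895 FPKM in any library. The hosts Mir17hg, Mir155hg and Mir142hg had no row among the 24087 genes.

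The share of rows that passed differed with the place of the hairpin. Positions were taken from GENCODE vM21 on GRCm38. Of 114 rows inside an exon of a gene on the same strand, 34 (29.8%) passed the rule, compared with 25 of 265 (9.4%) inside an intron and 4 of 158 (2.5%) with no overlapping gene. A further 8 of 54 rows that spanned exon and intron on the same strand passed (14.8%), as did 6 of 37 rows (16.2%) in an intron of a gene on the other strand. The 4 passing rows without an overlapping gene were Mir23a, Mir27a, Mir146 and Mir210. Whether the counting used strand was not given in the sources used here, so reads of a hairpin and of a gene on the other strand cannot be told apart.

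The reads were concentrated in a few rows. The 77 rows held 22374 reads over the 4 libraries, and 72.5% of them fell in Mir5125, Mir682, Mir142 and Mir3064. The median row had 38 reads in the 4 libraries together, 50 rows had under 20 reads in every library, and 14 rows had at least 20 in each. A count of 1 read in a hairpin of median length corresponded to 0.338 FPKM in the deepest library. Intervals given below for reads cover counting error only, at 95%.

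Mir5125 was the highest row (chr17:23823291-23823369, in an intron of Srrm2, which encodes a scaffold protein of the spliceosome). It measured 590 and 530 FPKM in the CTRL libraries against 568 and 565 FPKM for KO, with 1450 to 1583 reads in each library. The KO values lay between the CTRL values (log2 fold change 0.02, standard error 0.072, adjusted p 0.884, limma). The FPKM of Mir5125 was 2.54 to 2.86 times that of Srrm2 itself, which was at 206, 208, 204 and 202 FPKM in CTRL 1, CTRL 2, KO 1 and KO 2. A fragment longer than the hairpin is divided by the hairpin's length alone, so such a ratio of FPKM is not a ratio of coverage per base, and it is given here only to compare libraries.

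Mir142, the hairpin of a miRNA that is abundant in blood cells, measured 331 and 336 FPKM in the CTRL libraries against 285 and 360 FPKM for KO. The KO libraries lay on both sides of CTRL (log2 fold change -0.06, standard error 0.12, adjusted p 0.760, limma). All 40-base stretches of the hairpin also occur in Mir142b, and how the counting shared such reads is uncertain, as it is for 8 of the 77 rows, among them Mirlet7f-1 and Mir24-2. Other hairpins annotated over the same bases were not set apart from copies elsewhere in this check. Mir682 was at 417, 303, 325 and 488 FPKM (log2 fold change 0.16, standard error 0.24), and 45.6% of its stretches also occur in transcripts of other genes, among them the ribosomal protein gene Rpl37a. Mir3064 lies in an exon of Ddx5, a helicase that works with Drosha, and measured 194 and 231 FPKM in the CTRL libraries against 238 and 238 FPKM for KO (log2 fold change 0.17, adjusted p 0.272, limma).

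Among the next rows by level, Mir703 (26.9 to 37.7 FPKM), Mir3101 (17.4 to 28.8 FPKM), Mir3473c (13.2 to 19.6 FPKM) and Mir3061 (9.52 to 15.6 FPKM) did not pass the test. Mir3101, in an exon of the small GTPase gene Rab4b, had both KO libraries (17.4 and 19.2 FPKM) below both CTRL libraries (28.8 and 21.3 FPKM), with a log2 fold change of -0.42 and an adjusted p of 0.121 (limma).

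KO was compared with CTRL over the whole table, with limma on log2(FPKM + 1) and an adjusted p under 0.05 as the threshold, to find which miRNA rows differ between the genotypes. Of the 77 rows, 7 passed (9.09%), compared with 9.75% of the 11399 genes tested. Mir155, Mir22hg, Mir1938 and Mir7-1 were higher in KO (4 rows, 5.19%, against 5.1% of all genes tested), and Mir568, Mir1898 and Mir199a-1 were lower (3 rows, 3.9%, against 4.65%). The share of rows called was thus near that of all genes, as was the share at an unadjusted p under 0.05 (28 rows, 36.4%, against 34.7%). Groups did not overlap in 35 rows (45.5%), against 64.5% of all genes tested. KO lay above CTRL in 14 rows (18.2%, against 29.0%) and below it in 21 (27.3%, against 35.5%). The median log2 fold change was -0.058 over the miRNA rows and -0.022 over all genes tested, with 33 rows above 0 and 44 below. The standard error of a row had a median of 0.24, compared with 0.087 over all genes. It rests on the spread between libraries and can lie below counting error, as it does for Mir155, Mir568 and Mir7-1. When the recovered reads were tested with limma-voom, only Mir22hg remained past the threshold (1 of 77 rows, 1.3%, against 16.9% of all genes tested). With any 1 of the 4 libraries left out, the 7 rows kept their direction. This was fixed in advance, since in each row both KO libraries lay on the same side of both CTRL libraries.

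**Figure D1:**
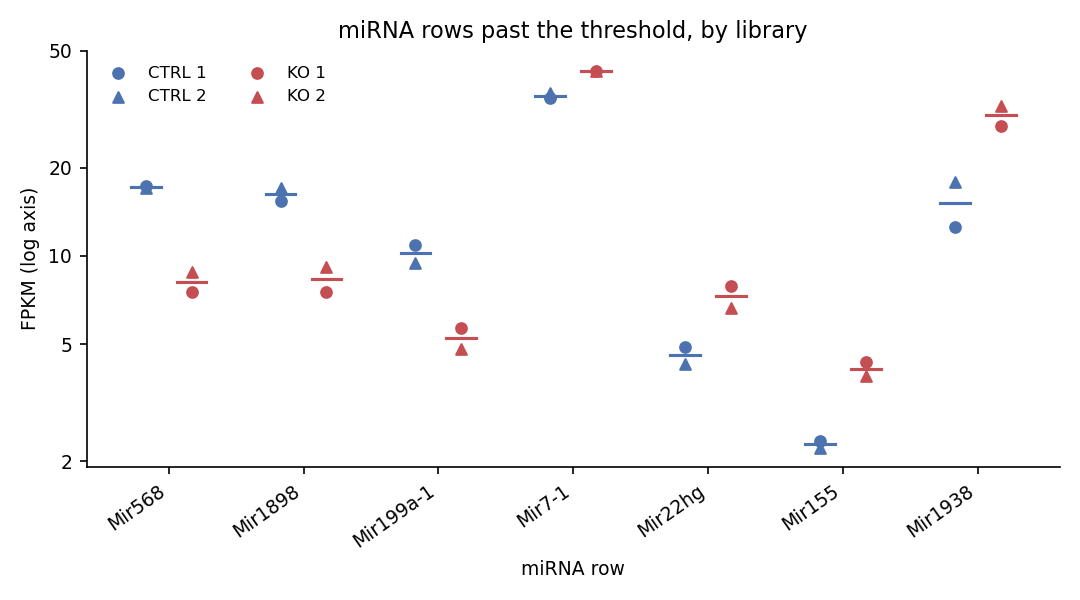
FPKM (log axis) of the 7 miRNA rows past the threshold, in order of their fold change. Circles are replicate 1 and triangles replicate 2 of CTRL (blue) and KO (red), and bars are the means of 2 libraries. In each row both KO libraries lie on the same side of both CTRL libraries, below them for Mir568, Mir1898 and Mir199a-1 and above them for the other 4 rows.

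Mir155 (ENSMUSG00000065397, chr16:84714140-84714204, in an exon of Mir155hg) measured 2.34 and 2.22 FPKM in the CTRL libraries against 4.36 and 3.90 FPKM for KO. Each KO library exceeded each CTRL library. The mean rose from 2.28 ± 0.0878 FPKM to 4.13 ± 0.320 FPKM (n = 2 in each group, SD), which was a log2 fold change of 0.64 (standard error 0.10, adjusted p 0.0378, limma). Few reads stood behind these values, with 5 and 5 in CTRL and 10 and 9 in KO. The ratio of read rates was 1.81, and its exact interval of 0.801 to 4.36 includes 1. In bulk RNA a change in the number of cells that hold a transcript and a change in the transcript per cell cannot be told apart.

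Mir22hg, the transcript that holds the hairpin of miR-22, measured 4.89 and 4.28 FPKM in the CTRL libraries against 7.92 and 6.64 FPKM for KO. It rose by 0.57 on the log2 scale (standard error 0.12, adjusted p 0.0475, limma; 0.0347 with limma-voom). At least 283 and 262 reads were recovered in CTRL and 494 and 416 in KO, and the ratio of rates was 1.59 (1.43 to 1.77). Mir22hg covers chr11:75461539-75466676 and shares 206 exon bases with Tlcd2, which is on the same strand and was at 2.70, 1.64, 3.18 and 2.67 FPKM. The hairpin row Mir22 inside it was at 0 in all 4 libraries.

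Mir1938 (chr12:40222712-40222811) lies in an intron of Ifrd1, which encodes an interferon-related developmental regulator. It measured 12.5 and 17.9 FPKM in the CTRL libraries against 27.8 and 32.4 FPKM for KO, from 41, 62, 98 and 115 reads. Its log2 fold change of 0.96 (standard error 0.18, adjusted p 0.0422, limma) was the highest among the called rows. Ifrd1 measured 70.2 and 73.1 FPKM in the CTRL libraries against 118 and 80.8 FPKM for KO (log2 fold change 0.44, standard error 0.178, adjusted p 0.154). Mir1938 also overlaps Gm7008, a gene on the other strand that did not exceed 0.352 FPKM in any library.

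Mir7-1 (chr13:58392779-58392886) lies in an intron of Hnrnpk, which encodes an RNA-binding protein of the nucleus. It measured 34.4 and 35.8 FPKM in the CTRL libraries against 42.7 and 42.8 FPKM for KO. The rise was small, at 0.28 on the log2 scale (standard error 0.055, adjusted p 0.0462, limma), and rested on 122 to 164 reads per library. The ratio of read rates was 1.22 (1.03 to 1.44), and the adjusted p with limma-voom was 0.288. Hnrnpk was at 228, 219, 234 and 236 FPKM (log2 fold change 0.07, adjusted p 0.387), so the ratio of the hairpin's FPKM to that of the gene was 0.151 and 0.164 in CTRL and 0.183 and 0.181 in KO.

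Mir568 (chr16:43640655-43640737) lies in an exon of Zbtb20, a zinc-finger transcription factor. It measured 17.3 and 17.0 FPKM in the CTRL libraries against 7.51 and 8.83 FPKM for KO, from 47, 49, 22 and 26 reads. Its log2 fold change of -0.99 (standard error 0.092, adjusted p 0.0303, limma) had the smallest adjusted p of the 77 rows, and the ratio of read rates was 0.476 (0.330 to 0.681). Zbtb20 as a whole measured 2.28 and 2.26 FPKM in the CTRL libraries against 1.59 and 1.68 FPKM for KO (log2 fold change -0.31, standard error 0.107, adjusted p 0.114). The ratio of the hairpin's FPKM to that of the gene was 7.58 and 7.55 in CTRL and 4.71 and 5.27 in KO.

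Mir1898 (chr15:12171492-12171574) lies in an intron of Zfr, a zinc-finger RNA-binding protein. It fell from 15.4 and 17.0 FPKM in CTRL to 7.51 and 9.17 FPKM for KO (log2 fold change -0.89, standard error 0.11, adjusted p 0.0346, limma). Zfr was at 25, 24.9, 22.9 and 23.3 FPKM, a log2 fold change of -0.10 (adjusted p 0.255). Mir199a-1 (chr9:21496495-21496564) lies in an intron of the dynamin gene Dnm2 on the other strand. It fell from 10.9 and 9.49 FPKM to 5.66 and 4.83 FPKM (log2 fold change -0.84, standard error 0.11, adjusted p 0.0351, limma), from 25, 23, 14 and 12 reads, while Dnm2 was at 89.6, 96.6, 96.4 and 94.1 FPKM.

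**Figure D2:**
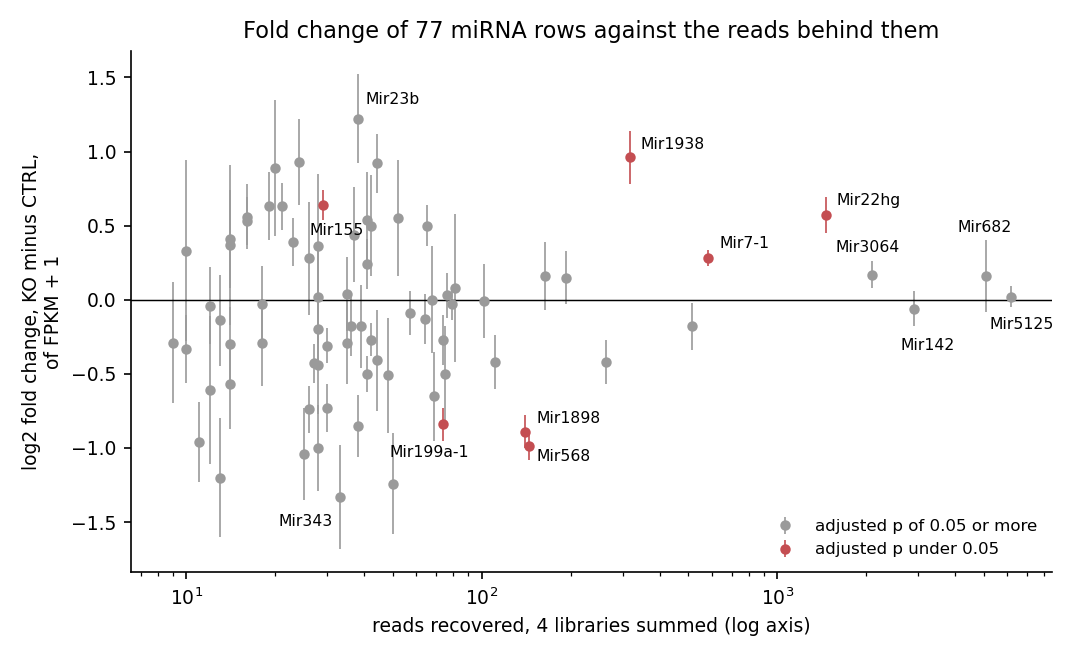
Log2 fold change of FPKM + 1 (KO minus CTRL) of the 77 miRNA rows against the reads recovered over the 4 libraries (log axis). Bars are standard errors and red points are the 7 rows with adjusted p under 0.05. Fold changes between -1.33 (Mir343) and 1.22 (Mir23b) occur in rows with few reads, and Mir5125, Mir682, Mir142 and Mir3064, to the right, lie near 0.

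Fold changes past those of the called rows were seen in rows with few reads, of which Mir343 was chosen after its values had been seen. Mir343 measured 7.32 and 3.08 FPKM in the CTRL libraries against 1.13 and 1.5 FPKM for KO (log2 fold change -1.33, standard error 0.35, adjusted p 0.0684, limma), from 18, 8, 3 and 4 reads. Mir23b was at 2.47, 1.17, 4.21 and 6.86 FPKM (log2 fold change 1.22, standard error 0.30, adjusted p 0.0621, limma). In both rows the groups did not overlap, and neither passed the threshold. By counting error alone, the interval of the KO to CTRL ratio left out 1 in 18 of the 77 rows, which included 6 of the 7 called rows. At the other end, the high row Mir682 had an interval of 1.07 to 1.20 while its libraries of the same genotype differed by more, with 1314 and 1007 reads in CTRL and 1102 and 1661 in KO.

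The miRNA rows were then set beside the gene that overlaps them on the same strand. Such a gene was annotated for 67 rows and was present and tested for 47 of them (44 different genes). The row and the gene moved in the same direction in 32 pairs and in opposite directions in 15. For hairpins inside an exon this was 13 of 19 pairs, for hairpins inside an intron 13 of 22, and for rows over both 6 of 6. Across the 47 pairs Pearson's r was 0.482 and Spearman's rho 0.519. Each pair shares its 4 libraries, an exonic hairpin is part of the gene's own exon, and pairs are not independent replicates, so these values are a description. The size of the log2 fold change had a median of 0.33 in the rows and 0.15 in the genes. Standard errors were larger in miRNA rows too (median 0.24, against 0.087 over all genes tested), and the difference in size was not tested.

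**Figure D3:**
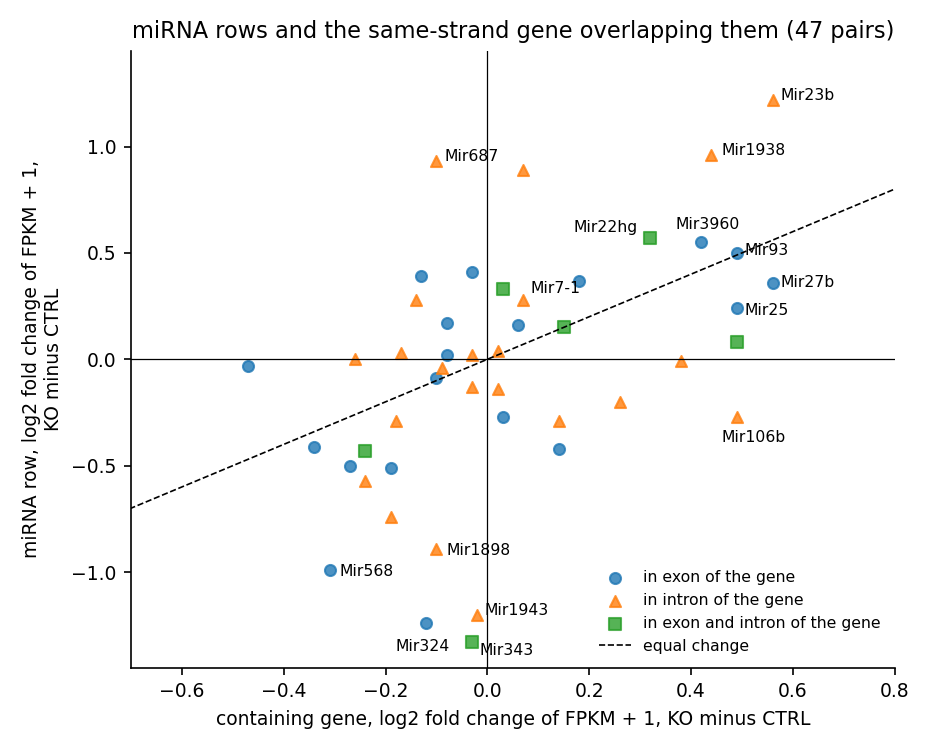
Log2 fold change of FPKM + 1 (KO minus CTRL) of 47 miRNA rows against that of the same-strand gene that overlaps each. Circles lie in an exon, triangles in an intron and squares over both, and the dashed line marks equal change. Mir23b, Mir1938 and Mir22hg lie high on the right, Mir568 and Mir324 low on the left, Mir343 low near the centre line, and Mir106b lies below 0 although its gene Mcm7 is above 0.

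Of the 44 genes so paired, 5 passed the threshold (11.4%, near the 9.75% of all genes tested), all higher in KO, and none of the rows inside them did. Mcm7, a subunit of the replicative helicase, measured 44.6 and 39.9 FPKM in the CTRL libraries against 59.8 and 59.8 FPKM for KO (log2 fold change 0.49, standard error 0.0716, adjusted p 0.0351, limma). It holds Mir25 (log2 fold change 0.24, adjusted p 0.354) and Mir93 (0.50, adjusted p 0.354) in exons and Mir106b (-0.27, adjusted p 0.151) in an intron. 2010111I01Rik, around Mir23b and Mir27b, rose from 3.28 and 3.25 FPKM to 5.44 and 5.16 FPKM (log2 fold change 0.56, adjusted p 0.0374, limma). The others were Cdk9, the kinase of the elongation factor P-TEFb (log2 fold change 0.42, around Mir3960), Rnf215 (0.38, around Mir3060) and the ATP synthase gene Atp5b (0.26, around Mir677).

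Hairpins that lie within 10 kb of each other on a strand are often cut from the same primary RNA, so their reads were also summed and tested as 1 row of the table, a step chosen after the data had been seen. There were 11 such loci and 10 could be tested. In that fit 1130 of 11386 rows were called (9.92%). The locus of Mir23b, Mir27b and Mir24-1 (chr13:63300484-63301275) was the only 1 of the 10 past the threshold. It had 9 and 11 reads in CTRL and 24 and 22 in KO, or 1.28, 1.48, 3.16 and 2.89 FPKM, and its log2 fold change was 0.76 (standard error 0.11, adjusted p 0.0353, limma). The ratio of read rates was 2.19 (1.27 to 3.91), and the adjusted p with limma-voom was 0.114. Its paralogous locus of Mir23a, Mir27a and Mir24-2 (chr8:84208518-84208921) had 30, 40, 35 and 17 reads (log2 fold change -0.42, standard error 0.27, adjusted p 0.321). Both make miRNAs of the same families, and the difference between the loci was not tested.

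**Figure D4:**
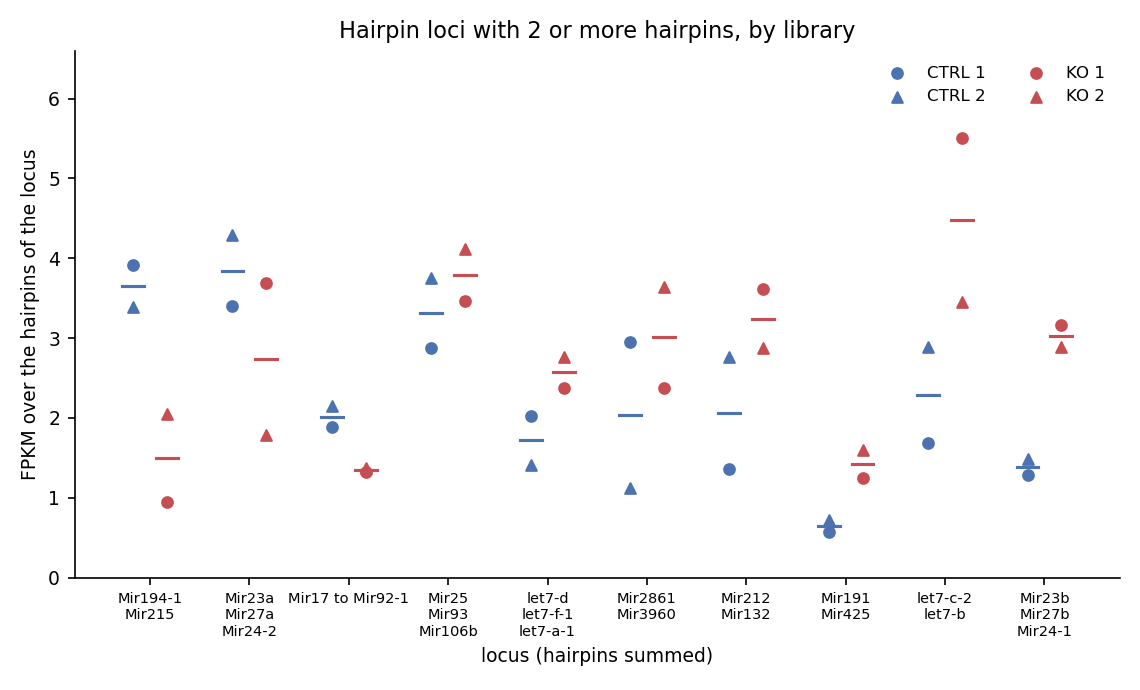
FPKM summed over the hairpins of each of the 10 tested loci, in order of their fold change. Circles are replicate 1 and triangles replicate 2 of CTRL (blue) and KO (red), and bars are means of 2 libraries. The groups are apart for 7 of the 10 loci, where 64.5% of all genes tested are apart, and overlap for the loci of Mir23a, Mir25 and Mir2861.

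The miR-17 seed was carried by rows of 2 loci. The locus from Mir17 to Mir92-1 (chr14:115043671-115044506) had 33 and 40 reads in CTRL and 25 and 26 in KO, with no overlap (log2 fold change -0.36, standard error 0.12, adjusted p 0.103, limma). Among its rows Mir17 (-0.18), Mir18 (-0.73), Mir19a (-0.44) and Mir20a (-0.31) all had log2 fold changes below 0, none called, and Mir19b-1 and Mir92-1 were at 0 in every library. The locus in Mcm7, with Mir25, Mir93 and Mir106b, had 24, 33, 31 and 37 reads (log2 fold change 0.15, standard error 0.14, adjusted p 0.493, limma).

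The let-7 seed was carried by rows of 4 places. Mirlet7c-2 and Mirlet7b (chr15:85706603-85707403) had 10 and 18 reads in CTRL and 35 and 22 in KO (log2 fold change 0.73, standard error 0.26, adjusted p 0.117, limma). Mirlet7d, Mirlet7f-1 and Mirlet7a-1 (chr13:48536012-48538272) had 19, 14, 24 and 28 reads (log2 fold change 0.40, standard error 0.15, adjusted p 0.139, limma). The groups did not overlap at either locus, and neither passed. Mirlet7g (1.39, 0.656, 0.644 and 1.28 FPKM) and Mirlet7i (1.08, 1.02, 1.00 and 0.332 FPKM) had 1 to 4 reads per library. For Mirlet7b alone the values were 1.79 and 2.72 FPKM in CTRL and 6.00 and 4.31 FPKM for KO (log2 fold change 0.92, adjusted p 0.0523, limma).

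None of the remaining loci passed. Mir194-1 with Mir215 had 23 and 21 reads in CTRL and 6 and 13 in KO (log2 fold change -0.93, standard error 0.23, adjusted p 0.0634, limma), and the interval of its ratio, 0.227 to 0.720, left out 1. Mir212 with Mir132 had 7, 15, 20 and 16 reads (log2 fold change 0.50, adjusted p 0.213, limma). Mir191 with Mir425 had 3, 4, 7 and 9 reads (log2 fold change 0.55, adjusted p 0.0718, limma).

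Rows of miRNAs known in T cells were read next. Of 46 names listed, 43 matched a row, 18 of these were at 0 in every library and 15 passed the FPKM rule. Mir155 and Mir22hg were the 2 called, both higher in KO (13.3% of 15, against 5.1% of all genes tested called higher and 9.75% called in either direction). A count of 2 among 15 rows is near that background. Mir146, which restrains Traf6 and Irak1 signalling, was at 1.41, 2.22, 1.74 and 0.868 FPKM (log2 fold change -0.30, adjusted p 0.438, limma). Mir150, a miRNA of mature lymphocytes, did not pass the rule, at 0.938, 0.444, 0 and 2.17 FPKM. Mir21a, Mir146b, Mir10a, Mir223, Mir182, Mir183, Mir181a-1 and Mir181a-2 were at 0 in all 4 libraries. The upper limit used here for a count of 0 is 3 reads in a library (one-sided, where the intervals of ratios are two-sided), which is 1.01 to 1.10 FPKM for a hairpin of median length.

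The genes that make miRNAs and act with them were described next. Of 34 listed genes, 31 were tested, 2 were higher and 4 lower in KO (19.4%, compared with 9.75% of all genes tested), and the median log2 fold change was -0.05. Dicer1, the enzyme that cuts the hairpin to the duplex, measured 15.0 and 15.5 FPKM in the CTRL libraries against 11.1 and 11.5 FPKM for KO, and fell (log2 fold change -0.40; standard error 0.065, adjusted p 0.0378, limma). Ago1, an Argonaute protein that holds the miRNA, fell from 14.1 and 14.6 FPKM to 10.9 and 10.7 FPKM (-0.38, adjusted p 0.0404, limma). In each of these genes the KO values were under all CTRL values.

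Ddx17, a helicase of the Drosha complex, fell from 76.2 ± 0.10 FPKM to 60.9 ± 3.55 FPKM (n = 2 in each group, SD; log2 fold change -0.32, adjusted p 0.0440, limma). Tut4, which adds uridines to let-7 precursors, fell from 31.4 ± 0.744 to 25.1 ± 0.736 FPKM (-0.31, adjusted p 0.0432, limma). Ran, the GTPase that powers export by exportin 5, rose from 89.2 ± 5.30 to 111 ± 4.02 FPKM (0.32, adjusted p 0.0495, limma), and Pabpc1, the poly(A)-binding protein, rose from 752 ± 14.0 to 925 ± 13.8 FPKM (0.30, adjusted p 0.0430, limma). Ran and Pabpc1 also serve general nuclear transport and mRNA translation.

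The core of the nuclear step did not pass. Drosha was at 11.8, 12.6, 13.7 and 13.3 FPKM (log2 fold change 0.13, adjusted p 0.247, limma), Dgcr8 at 11.8, 11.2, 10.8 and 11.3 FPKM (-0.05, adjusted p 0.630), and Xpo5, exportin 5, at 16.6, 16.5, 16.4 and 15.5 FPKM (-0.05, adjusted p 0.646). Ago2 was at 18.5, 20.9, 19.3 and 18.8 FPKM (-0.04, adjusted p 0.733). Ago3 measured 2.79 and 2.89 FPKM in the CTRL libraries against 1.81 and 1.72 FPKM for KO, with a log2 fold change of -0.48 that was just short of the threshold (adjusted p 0.0517, limma). After median-ratio scaling of the libraries, 2 of the 31 tested genes of this list were higher and 2 lower, and after quantile normalization 1 was higher and 4 lower. With limma-voom on recovered reads 10 of the 31 passed, 3 higher and 7 lower, in a fit that called 16.9% of all genes tested.

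**Figure D5:**
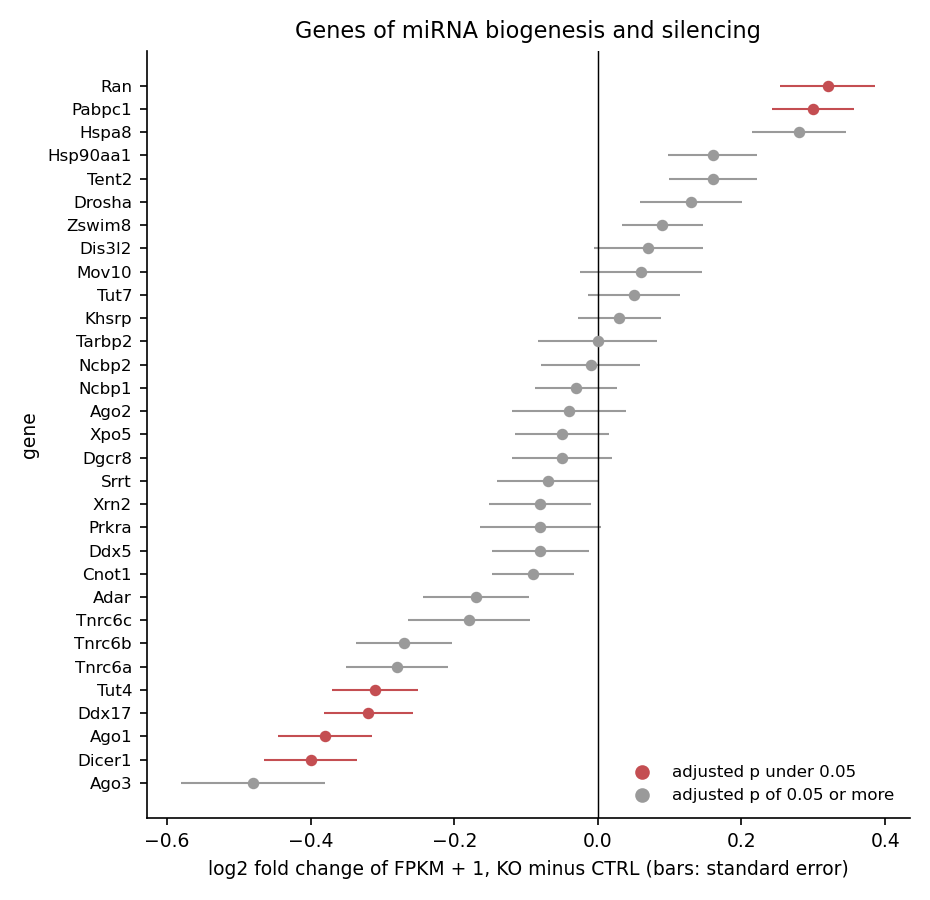
Log2 fold change of FPKM + 1 (KO minus CTRL) of the 31 tested genes of miRNA biogenesis and silencing, with standard errors as bars. Red marks the 6 genes with adjusted p under 0.05. Dicer1, Ago1, Ddx17 and Tut4 lie to the left of 0, Ran and Pabpc1 to the right, and Drosha, Dgcr8 and Xpo5 near 0.

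Textbook targets of T cell miRNAs were read from the same fit. Of 24 genes, 21 were tested, 2 were higher and 2 lower in KO (19.0%, against 9.75% of all genes tested), with a median log2 fold change of 0.00. Bcl2, an anti-apoptotic gene repressed by miR-15 and miR-16, measured 36.2 and 35.3 FPKM in the CTRL libraries against 19.4 and 21.9 FPKM for KO, and fell (log2 fold change -0.77; standard error 0.076, adjusted p 0.0306, limma). Ccne1, the gene of cyclin E1 and a target of the same family, rose from 7.40 and 6.97 FPKM to 10.5 and 12 FPKM (0.58, adjusted p 0.0375, limma). The hairpin rows of that family did not pass the FPKM rule, and Mir15a was at 0, 0.344, 0.674 and 0 FPKM.

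E2f1, a cell cycle transcription factor and target of the miR-17 family, rose from 4.39 and 3.77 FPKM to 7.73 and 7.43 FPKM (log2 fold change 0.76, standard error 0.097, adjusted p 0.0346, limma). Bcl2l11, a pro-apoptotic gene and known target of the same family, was at 9.90, 11.5, 9.55 and 10.1 FPKM (-0.11, adjusted p 0.463, limma). Spry1, a target of miR-21 and an inhibitor of receptor signalling, fell from 16.9 and 18.8 FPKM to 12.7 and 12.6 FPKM (-0.47, adjusted p 0.0382, limma), whereas its hairpin row Mir21a was at 0 throughout. Socs1, a target of miR-155, measured 47.2 and 58.1 FPKM in the CTRL libraries against 48.0 and 52.1 FPKM for KO (-0.06, standard error 0.11, adjusted p 0.721, limma), so the KO values lay within the CTRL range. Inpp5d, another listed target of miR-155, was at 47.2 and 48.5 FPKM in CTRL against 56.8 and 54.7 FPKM for KO. Its log2 fold change of 0.22 did not pass (adjusted p 0.0677, limma). Spi1 and Bach1, listed for the same miRNA, overlapped between the groups and did not pass (adjusted p 0.933 and 0.975, limma).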

How the data were processed

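RNA was enriched with oligo(dT) from approximately 1000000 sorted Treg cells per library and sequenced as 150 bp read pairs. Per the methods and processing notes, the authors mapped reads to mm10 (GRCm38) with HISAT2 2.2.1 and counted them with featureCounts 2.0.1. Their own comparison used edgeR 3.34.0 on counts. The values deposited by the authors were FPKM for 24087 genes. The use of strand and the treatment of multi-mapped and multiply assigned reads were not given in the sources used here, which affects hairpins most, since they lie inside other genes. Control columns named WT were read as CTRL.

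KO and CTRL were compared with limma 3.58.1 (R 4.3.3; lmFit and eBayes with trend, two-sided) on log2(FPKM + 1) over the 11399 genes at 1 FPKM or more in at least 2 libraries. The Benjamini-Hochberg adjustment covered every gene tested, and fold changes on this scale understate those of low rows. Reads were recovered as FPKM times length times library total, with the annotated length for hairpins and a length fitted to the values for other genes. They were whole, within 0.02 or a small relative error, in all libraries for 19778 of 19888 genes (99.4%). For fitted lengths this is no separate check, since the length was chosen to make the reads whole. The reads are exact for hairpins of the annotated length and are lower bounds for other genes. Ratios of read rates have exact conditional 95% intervals. Positions came from GENCODE vM21 and mature sequences from RefSeq (GRCm38.p6). Other steps used Python 3.11.15, pandas 2.3.3, numpy 2.4.6 and scipy 1.17.1. The procedure was tested on simulated data. Only genes with more reads than most miRNA rows were changed there, so that test does not cover rows with few reads.

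Text was given to every row past the threshold, the 12 rows with the highest mean FPKM, rows ending in hg, rows of miRNAs known in T cells, genes overlapping these, listed genes past the threshold, and Drosha, Dgcr8, Dicer1, Xpo5, Ago2, Socs1, Bcl2l11 and Setd2. One further gene under this rule is not reported here. Mir343, Ago3, Mir210, Mir22, Mir324, Inpp5d, Spi1, Bach1, the summed loci and genes paired with rows outside this rule were chosen after their values were seen. The direction of Inpp5d, Spi1 and Bach1 under the alternatives is not given here. The members and gene lists were chosen with earlier results of these data known. Alternatives were another pseudocount, other filters, scalings and variance models, limma-voom on recovered reads, a replicate block, loci counted once, rows with at least 20 reads in each library, each library left out and, added after seeing the data, summed loci.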

Additional observations from a re-analysis of the deposited data

How the results depend on the processing

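The 7 miRNA calls belonged to 7 different loci, and 5 of them had at least 20 reads in each library. Between 6 and 9 rows passed with a pseudocount of 0.1, a mean FPKM above 5 in either group, 3 other scalings or robust eBayes. Without a filter on low values 0 rows passed, as did 0 of 19888 genes, with 24 rows and 4463 genes at an unadjusted p under 0.05. Without a variance trend 4 rows and 679 genes passed, compared with 1111 genes in the comparison as reported, and with limma-voom on recovered reads 1 row and 1929 genes. Biogenesis and silencing genes past the threshold numbered 0, 2 and 10 under those settings in the same order, and 0 textbook targets passed without a filter. With 1 library left out, 0 to 1 genes, 0 miRNA rows, 0 biogenesis and silencing genes and 0 textbook targets passed, while 23 to 32 miRNA rows were at an unadjusted p under 0.05. In such fits the lone library was assumed to vary like the other group. The causes were not tested.

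The replicate numbers were shared by the genotypes in the labels only. Deviations of same-numbered libraries correlated by 0.342 over all genes tested and by -0.14 over the miRNA rows, and 2 pairs do not establish a pairing. With the replicate block 22 of 77 miRNA rows passed (28.6%), which included the 7 called without it, against 1773 of 11399 genes tested (15.6%). In this fit the share of rows was thus above that of all genes, unlike in the comparison as reported. Of the listed genes, 8 of 31 tested for biogenesis and silencing passed with the block, and 4 of 21 tested textbook targets. When loci were summed, 3 of 10 tested passed with it.

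The median log2 fold change of the miRNA rows was -0.007 with a mean FPKM above 5, -0.039 with median-ratio scaling, -0.072 with scaling to the same sum or quantile normalization, -0.077 with limma-voom, and -0.182 to -0.024 with 1 library left out (-0.182 without CTRL 2). Setd2 stayed below 0 and did not pass in any of these fits. The row and its gene moved in the same direction in 14 pairs with a mean FPKM above 5, where fewer rows were tested. The number of pairs tested there is not given, so this count cannot be set against the 32 of 47 pairs above. No called gene named in the text changed direction. With 1 library left out this was fixed in advance, since the groups of these genes did not overlap. Uncalled genes that did were Ppp2ca (-0.05), Hnrnpk (-0.05) and Dnm2 (-0.06) with quantile normalization. With 1 library left out, log2 fold changes crossed 0 for Mir5125 (-0.06 to 0.10), Mir682 (-0.13 to 0.46), Mir142 (-0.23 to 0.11), Mir703 (-0.41 to 0.06), Mir3473c (-0.12 to 0.42), Mir3061 (-0.14 to 0.47), Mirlet7g (-0.30 to 0.23), Mir24-2 (-0.30 to 0.23), Mir27a (-0.69 to 0.11), Mir27b (-0.27 to 0.98), Dnm2 (-0.02 to 0.09), Ago2 (-0.13 to 0.04) and Socs1 (-0.21 to 0.08).

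Depth limits these rows, since 50 of 77 had under 20 reads in every library. Rows inside other genes also depend on how reads over more than 1 gene were counted, which was not given in the sources used here.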

Other observations

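Several miRNA host transcripts outside the FPKM rule were read in CTRL 1 alone. Mir99ahg (5 reads, 0.0484 FPKM), Mir124-2hg (4 reads, 0.0895 FPKM), Mir124a-1hg (2 reads, 0.0151 FPKM) and Mir100hg (1 read, 0.0419 FPKM) had reads in CTRL 1 and were at 0 in CTRL 2, KO 1 and KO 2. Mir9-3hg was at 0 in all 4 libraries. CTRL 1 also had the most hairpin rows above 0, with 151 compared with 110 in CTRL 2, 126 in KO 1 and 113 in KO 2. These low rows enter no comparison of the report.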
